A study of Arabidopsis thaliana with 20 samples.

Results

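The 10 genes described here act in the Arabidopsis thaliana pollen tube. They encode 2 secreted RALF peptides (RALF4, AT1G28270, and RALF19, AT2G33775), 4 receptor-like kinases (ANX1, AT3G04690, ANX2, AT5G28680, BUPS1, AT4G39110, and BUPS2, AT2G21480) and 4 pectin methylesterases (VGD1, AT2G47040, VGDH1, AT2G47030, VGDH2, AT3G62170, and PPME1, AT1G69940). They were taken by their gene identifiers, chosen with earlier results of these data known, and are 10 of the 28775 genes in the gene count tables. The GMUCT tables list 27416 of those genes. The transcript model of each of the 10 also stands in the small RNA tables. At least 1 read was counted for 9 of the 10. BUPS1 was listed at 0 in all 14 gene count libraries.

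The study profiled whole unopened flower buds, harvested at approximately 4 weeks from plants kept in days of 16 h light and 8 h dark. RNA with a 5′ NAD cap was captured from dxo1 and Col-0 buds, whose polyA RNA and total RNA were also sequenced. GMUCT, which sequences polyadenylated RNA that carries a free 5′ monophosphate and so reports decay and cleavage products, was run on dxo1 buds. Small RNA was sequenced from dxo1 rdr6, dxo1 and Col-0 buds. Each of these 10 groups held 2 libraries. Col-0 is the wild type, dxo1 a mutant of the enzyme that takes NAD and other unusual caps off RNA, and dxo1 rdr6 a mutant that also lacks the RNA-dependent RNA polymerase RDR6. The alleles are not given in the sources used here, and no label says that replicates came from separate plants, so every p-value measures only the spread between these libraries.

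A pollen tube grows at its tip through the tissues of the pistil and must keep its wall both extensible and closed. RALF4 and RALF19 are secreted by the tube itself and are bound by ANX1 and ANX2 together with BUPS1 and BUPS2, receptor kinases of the family that includes FERONIA. Loss of the peptides or of the receptors makes tubes burst early. Pectin methylesterases remove methyl groups from the pectin of the tube wall and so set its stiffness, and VGD1 and PPME1 are each needed for normal tube growth.

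The targeted gene does not match the label in every library. DXO1 (AT4G17620) stood at 501 and 19.4 CPM (read counts divided by the TMM-scaled library size), in polyA RNA labelled dxo1 replicate 1 and replicate 2, against 48.6 and 49.2 CPM in Col-0. In total RNA it stood at 612 and 10.99 CPM in replicates 1 and 2 labelled dxo1, against 32.9 and 29.0 CPM in Col-0. GMUCT gave 1688 CPM in replicate 1 and 20.4 CPM in replicate 2. In small RNA the gene had 16739 counts in dxo1 replicate 1 and 5 in dxo1 replicate 2. DXO1 reads were thus high in replicate 1 of these 4 assays. In NAD capture DXO1 had 17.8 and 17.6 CPM in dxo1, against 13.96 and 25.2 CPM in Col-0, so neither dxo1 capture library lay below both Col-0 capture libraries. Tests that use dxo1 are therefore given for the libraries so labelled and again without replicate 1. The depth in reads counted to genes was 19769742 and 30883266 in the GMUCT libraries, 10100250 to 16833010 in polyA RNA, 2576448 to 8309456 in total RNA and 1144896 to 3178702 in NAD capture. Reads left out of the gene counts, mostly because they matched several places, made up 90.8 to 96.1% of the NAD capture and total RNA libraries.

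All 9 measured genes were lower in polyA RNA from buds labelled dxo1 than in Col-0 buds, by 2.88-fold (BUPS2) to 4.48-fold (ANX2). Ligands, receptors and pectin methylesterases all moved the same way, and for each of the 9 genes both dxo1 libraries lay below both Col-0 libraries. Summed over the 9 genes, the level was 589.7 and 303 CPM in the dxo1 libraries and 1474 and 1512 CPM in the Col-0 libraries. Each of the 9 passed edgeR's quasi-likelihood test at an adjusted p under 0.05, while 14.5% of all 19730 genes tested were called lower and 34% had libraries that did not overlap in that direction. The median log2 fold change was -1.75 over the 9 genes and 0.01 over all genes tested. In whole buds, fewer pollen grains and less of each RNA per grain cannot be told apart.

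The ligand genes were low in both dxo1 libraries. RALF4 had 9.74 and 6.30 CPM in the polyA libraries labelled dxo1, against 32.0 and 30.3 CPM in Col-0. Its log2 fold change was -1.94 (SE 0.19), with an adjusted p of 0.00137 in edgeR's quasi-likelihood test. RALF19, which acts redundantly with RALF4, had 9.30 and 4.80 CPM with the dxo1 label and 24.7 and 23.4 CPM in Col-0. Here the log2 fold change was -1.75 (SE 0.25, edgeR adjusted p = 0.00406). For both peptides, dxo1 replicate 1 lay above replicate 2, and both stayed well under Col-0.

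The receptor genes were counted less deeply, with 29 to 67 reads per dxo1 library and 119 to 286 per Col-0 library. ANX2 showed the largest fall of the 9 genes, at 4.56 and 3.20 CPM in the dxo1 libraries against 18.0 and 17.1 CPM in Col-0 (log2 fold change -2.16, SE 0.19, edgeR adjusted p = 0.00119). ANX1, its close relative with an overlapping role, had 3.95 and 3.30 CPM in dxo1 and 9.84 and 11.8 CPM in Col-0. That is a log2 fold change of -1.58 (SE 0.20, edgeR adjusted p = 0.00285). BUPS2, which pairs with the ANX receptors, averaged 4.39 ± 2.11 CPM in dxo1 and 12.9 ± 0.855 CPM in Col-0 (SD, n = 2 each), from 5.88 and 2.90 CPM in the dxo1 libraries and 13.5 and 12.3 CPM in the Col-0 libraries. Its log2 fold change was -1.53 (SE 0.28, edgeR adjusted p = 0.00904). The 3 receptors together came to 14.4 and 9.39 CPM in dxo1, against 41.3 and 41.2 CPM in Col-0, so the Col-0 libraries nearly coincided and the dxo1 libraries lay apart from them. The count of 0 for BUPS1 allows up to 0.297 CPM in the polyA libraries labelled dxo1 and up to 0.247 CPM in those of Col-0, counting error only. Of the 28775 genes, 3332 were at 0 in all 12 NAD capture, total and polyA libraries. Whether reads of BUPS1 were lost in the counting was not tested.

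The pectin methylesterase genes rested on 397 to 8033 reads per library. VGD1 (VANGUARD1) had 170.3 and 81.2 CPM in the dxo1 libraries, against 467 and 466 CPM in Col-0 (log2 fold change -1.89, SE 0.30, edgeR adjusted p = 0.00544). VGDH1, which lies next to VGD1 in the genome, had 85.1 and 39.7 CPM in dxo1 and 202 and 216 CPM in Col-0 (log2 fold change -1.74, SE 0.30, edgeR adjusted p = 0.00721). VGDH2 had 202 and 115 CPM in dxo1, against 457 and 480.7 CPM in Col-0 (log2 fold change -1.56, SE 0.24, edgeR adjusted p = 0.00471). PPME1 had 98.7 and 46.3 CPM in dxo1, against 249.9 and 255 CPM in Col-0 (log2 fold change -1.79, SE 0.30, edgeR adjusted p = 0.00653). Each esterase was about as far below Col-0 as the peptides and receptors were, and dxo1 replicate 1 was again the higher of the dxo1 libraries. VGD1 and VGDH1 are similar neighbouring copies whose reads could be split in counting, and ANX1 overlaps the end of another gene, TPR10, in the annotation used, so these 3 values are less certain.

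Without dxo1 replicate 1, all 9 genes were still called lower, with log2 fold changes between -2.52 and -1.73. That fit takes its error from the Col-0 libraries and assumes that the lone dxo1 library varies like them, and it called 21.8% of all genes lower. With a Col-0 polyA library left out, the error came from the dxo1 libraries instead. Those lay further apart than the Col-0 libraries (chi-square per degree of freedom 10.3 against 2.26). Fewer of the 9 genes then passed, while all 9 log2 fold changes stayed negative.

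**Figure D1:**
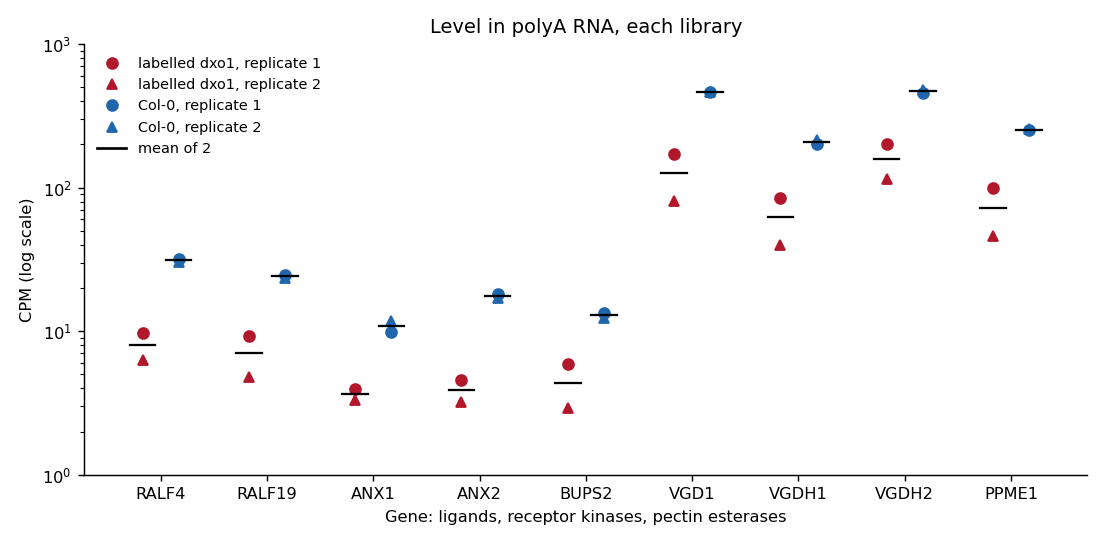
PolyA RNA level of the 9 measured genes in CPM (log axis), with the libraries labelled dxo1 left of Col-0 for each gene, circles for replicate 1, triangles for replicate 2 and a bar at the mean. Every dxo1 point lies below both Col-0 points of its gene, from VGD1 at 170.3 and 81.2 against 467 and 466 CPM to ANX1 at 3.95 and 3.30 against 9.84 and 11.8 CPM; levels are not per length, so heights of different genes are not comparable.

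The 9 genes had negative log2 fold changes in total RNA from buds labelled dxo1 as well. None of the 9 passed in the fit of total RNA with NAD capture, which takes its error from both assays. In that fit the Col-0 capture libraries lay furthest apart (chi-square per degree of freedom 33.7, against 2.26 in Col-0 total RNA). Fitted alone, the total RNA libraries gave calls, set out below with the count over all genes. The summed level was 434 and 264 CPM in dxo1 total RNA and 756 and 765 CPM in Col-0 total RNA. The median log2 fold change was -1.16 over the 9 genes and 0.00 over the 17718 genes tested. For 8 of the 9 genes both dxo1 libraries lay below both Col-0 libraries, against 27.2% of all genes. By edgeR's test 0.988% of all genes passed in this comparison, and 5 of the 9 had an unadjusted p under 0.05. DESeq2 called 2 of the 9.

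Among the esterases, VGD1 came closest to the threshold, with 103 and 55.1 CPM in dxo1 total RNA and 218 CPM in each Col-0 library (log2 fold change -1.47, SE 0.30, edgeR adjusted p = 0.0517). VGDH1 had 63.7 and 30.4 CPM in dxo1, against 114 and 109.6 CPM in Col-0 (log2 fold change -1.27, SE 0.31, edgeR adjusted p = 0.0831). VGDH2 had 149 and 100.1 CPM in dxo1 and 231 and 264 CPM in Col-0, a log2 fold change of -0.99 (SE 0.27). PPME1 showed the smallest difference of the 4 esterases, at 77.4 and 54.5 CPM in dxo1 against 126 and 103 CPM in Col-0 (log2 fold change -0.80, SE 0.41). In each of the 4 the dxo1 and Col-0 libraries did not overlap.

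Ligands and receptors had fewer reads here and wider errors. RALF4 had 18.4 and 9.14 CPM in dxo1 total RNA, against 28.0 and 33.9 CPM in Col-0 (log2 fold change -1.21, SE 0.49), and RALF19 had 8.77 and 4.00 CPM in dxo1, against 11.1 and 16.5 CPM in Col-0 (log2 fold change -1.16, SE 0.63). ANX2 again stood furthest apart among the receptors, at 4.09 and 2.00 CPM in dxo1 and 9.61 and 8.91 CPM in Col-0 (log2 fold change -1.71, SE 0.41, edgeR adjusted p = 0.0784). ANX1 had 2.63 and 4.85 CPM in dxo1, against 8.33 and 5.35 CPM in Col-0, with a log2 fold change of -0.84 (SE 0.44). BUPS2 was the exception to the separation, with 6.72 and 4.00 CPM in dxo1 and 10.3 and 5.79 CPM in Col-0. There dxo1 replicate 1 lay above Col-0 replicate 2, and the log2 fold change was -0.70 (SE 0.41).

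With only the 4 total RNA libraries fitted, 7 of the 9 were called lower, and 2357 genes over all, of which 1155 were lower. The fit as reported called 175 genes, 103 of them lower. No filter on low counts gave 6 of the 9, and 1081 genes over all, of which 636 were lower. Leaving out either Col-0 NAD capture library raised the calls among the 9 and over all genes. Without dxo1 replicate 1 no gene was called, while all 9 log2 fold changes stayed negative, between -2.19 and -0.52. Markers of other cell types differed in total RNA as well. The 12 tapetum markers summed to 1265 to 1350.1 CPM in dxo1 and 3342 to 3563 CPM in Col-0, with a median log2 fold change of -0.85 and 1 of 11 called lower (CYP703A2, log2 fold change -1.43, edgeR adjusted p = 0.0360), against 0.581% of all genes. Carpel and ovule markers summed to 42.0 to 53.8 CPM in dxo1 and 57.5 to 59.3 CPM in Col-0, with a median of -0.41 and none of 6 called. Without dxo1 replicate 1 these medians were -0.50 and -0.59, with no gene called in total RNA. The part of these markers in the result for the 9 genes was not tested.

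In NAD-captured RNA, 1 of the 9 genes was lower in buds labelled dxo1 than in Col-0 buds: ANX2, with 3.28 and 4.96 CPM in dxo1 and 17.4 and 19.8 CPM in Col-0. Its log2 fold change was -2.25 (SE 0.42), with an edgeR adjusted p of 0.0467. Over all genes, 0.689% were called lower. The call rested on 14 and 11 reads in dxo1 and 15 and 48 reads in Col-0, and without the dxo1 replicate 1 libraries the log2 fold change was -1.91 with an edgeR adjusted p of 0.662. All 9 log2 fold changes were negative, with a median of -1.10 against -0.01 over all genes, and 6 of the 9 genes had libraries that did not overlap, against 19.7% of all genes in that direction.

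ANX1 was next by size, at 1.88 and 3.16 CPM in captured dxo1 RNA and 11.6 and 9.07 CPM in captured Col-0 RNA (log2 fold change -2.06, SE 0.54, edgeR adjusted p = 0.100). VGD1 had 131 and 116 CPM in dxo1, against 255 and 303 CPM in Col-0 (log2 fold change -1.18, SE 0.30, edgeR adjusted p = 0.0981). VGDH1 had 34.3 and 40.6 CPM in dxo1 and 82.6 and 88.3 CPM in Col-0, and VGDH2 89.6 and 70.8 CPM in dxo1 and 133 and 177 CPM in Col-0. Their log2 fold changes were -1.20 (SE 0.33) and -0.95 (SE 0.28). BUPS2, from 4 to 15 reads per library, had 2.58 and 2.71 CPM in dxo1 and 4.65 and 6.19 CPM in Col-0 (log2 fold change -1.10, SE 0.56).

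The other 3 genes overlapped, with the Col-0 capture libraries far apart. RALF4 had 21.1 and 13.1 CPM in captured dxo1 RNA, against 9.30 CPM in Col-0 replicate 1 and 42.1 CPM in Col-0 replicate 2. RALF19 had 13.6 and 16.7 CPM in dxo1, against 4.65 and 39.6 CPM in Col-0, where the lower value rests on 4 reads. PPME1 had 115 and 79.4 CPM in dxo1, against 77.9 and 219 CPM in Col-0. In each of these 3 genes Col-0 replicate 1 was the lowest library and Col-0 replicate 2 the highest. The log2 fold changes were -0.73 (SE 0.51) for RALF4, -0.80 (SE 0.59) for RALF19 and -0.64 (SE 0.41) for PPME1, and without Col-0 NAD capture replicate 2 they turned positive, to 0.94, 1.67 and 0.34. Leaving out either Col-0 NAD capture library raised the calls among the 9, and the calls lower over all genes rose as well. Leaving out any other single library lost the ANX2 call. Tapetum markers in captured RNA summed to 948 to 985 CPM in dxo1 and 688 to 1419 CPM in Col-0, and carpel and ovule markers to 97.0 to 116 CPM in dxo1 and 88.4 to 94.0 CPM in Col-0.

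**Figure D2:**
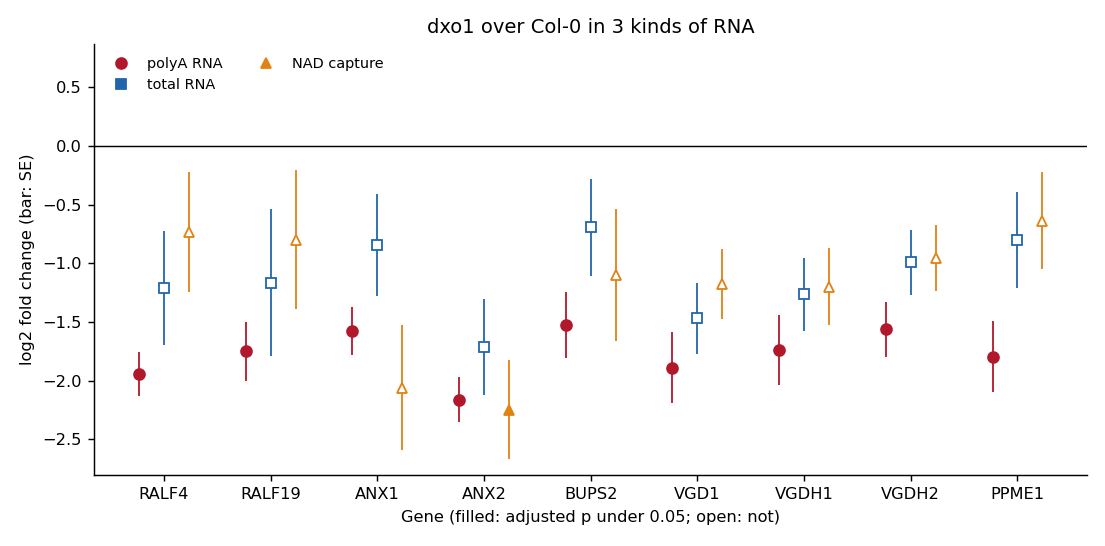
Log2 fold change of dxo1 over Col-0 for the 9 measured genes in polyA RNA (red circles), total RNA (blue squares) and NAD-captured RNA (orange triangles), with bars of 1 SE and filled symbols where the edgeR adjusted p is under 0.05. All points lie below 0, all 9 polyA points are filled, and ANX2 at -2.25 is the filled point of the capture comparison.

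Other genes of the tube's growth machinery were counted in polyA RNA from 8 lists taken from textbook knowledge. The lists were chosen with earlier results of these data known, so their counts are a description and not independent support. Of 24 tested signalling partners of tube growth, 19 were lower in dxo1 and none higher, with a median log2 fold change of -1.69, while 14.5% of all genes were called lower. Their summed level was 178 to 294 CPM in dxo1 and 667 to 690.5 CPM in Col-0. ACA9, a calcium pump of the pollen plasma membrane, averaged 19.2 CPM in dxo1 and 71.2 CPM in Col-0. PRK4, a pollen receptor kinase, averaged 3.82 CPM in dxo1 and 16.8 CPM in Col-0. AHA6, a proton pump, averaged 47.4 CPM in dxo1 and 138 CPM in Col-0, and CPK34, a calcium-dependent kinase, 1.80 CPM in dxo1 and 8.75 CPM in Col-0, so all 4 stood well below their Col-0 level.

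All 6 other pollen RALF genes were lower, with a median log2 fold change of -2.15, and summed to 30.8 to 63.5 CPM in dxo1 and 204 to 217 CPM in Col-0. RALF8 averaged 19.3 CPM in dxo1 and 92.1 CPM in Col-0 (log2 fold change -2.24, edgeR adjusted p = 0.00223), and RALF9 averaged 17.8 CPM in dxo1 and 74.8 CPM in Col-0 (log2 fold change -2.05, edgeR adjusted p = 0.00528). RALF15 and RALF26 were lower too, at log2 fold changes of -2.07 and -2.46. Of 8 other pollen pectin enzymes and inhibitors, 7 were lower and none higher, with a median of -1.87. AT59, a pectate lyase of pollen, averaged 9.83 CPM in dxo1 and 56.0 CPM in Col-0. PMEI1, an inhibitor of pectin methylesterases, averaged 1.69 CPM in dxo1 and 8.40 CPM in Col-0 and was called lower, while PMEI2, the other inhibitor on the list, named here after its value was seen, averaged 1.19 CPM in dxo1 and 2.31 CPM in Col-0 and was not called (log2 fold change -0.99, edgeR adjusted p = 0.0850). PGA4 (polygalacturonase 4) averaged 89.6 CPM in dxo1 and 332 CPM in Col-0, and AT3G07820 72.9 CPM in dxo1 and 354 CPM in Col-0.

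Of 8 pollen transcription factor genes tested, 3 were lower and none higher, with a median log2 fold change of -0.59: AGL30 at -1.01 (edgeR adjusted p = 0.00474) and AGL104 at -1.38 (edgeR adjusted p = 0.0228), both MADS-box factors, and MYB101 at -0.59 (edgeR adjusted p = 0.0344). Relatives of the 10 genes used outside pollen showed no common direction. Of 18 tested, 4 were higher and 3 lower, with a median of -0.16, while 15.6% of all genes were called higher and 14.5% lower. RALF23 averaged 92.7 CPM in dxo1 and 60.8 CPM in Col-0 (log2 fold change 0.61, edgeR adjusted p = 0.00550), and RALF22 averaged 40.4 CPM in dxo1 and 24.3 CPM in Col-0 (log2 fold change 0.72, edgeR adjusted p = 0.0113). PME2 averaged 1.18 CPM in dxo1 and 4.09 CPM in Col-0, and PME1 84.97 CPM in dxo1 and 120.0 CPM in Col-0.

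Markers of other cell types of the bud were read in the same libraries. Markers of the tapetum, the anther layer that feeds pollen, differed too. Of 11 tested, 4 were lower, against 14.5% of all genes, with a median log2 fold change of -0.11. The 12 summed to 1291 to 2144 CPM in dxo1 and 3416 to 3747 CPM in Col-0. Most of that sum is ATA20, a tapetum gene, at 968 CPM in dxo1 and 2747 CPM in Col-0 (log2 fold change -1.50, edgeR adjusted p = 0.0139). CYP703A2, an enzyme of pollen wall precursor synthesis, was lower by a log2 fold change of -0.55 (edgeR adjusted p = 0.0176), ATA7 by -0.69 (edgeR adjusted p = 0.0262) and AT5G07230 by -0.69 (edgeR adjusted p = 0.0344). Carpel and ovule markers gave no call among 6 tested, and summed to 83.9 to 109 CPM in dxo1 and 101 to 103 CPM in Col-0. STK, an ovule identity factor, averaged 22.7 CPM in dxo1 and 22.1 CPM in Col-0. SPT, a factor of carpel margin growth, averaged 22.996 CPM in dxo1 and 21.4 CPM in Col-0. Sperm cell markers were near the lower limit, at a sum of 2.80 to 3.51 CPM in dxo1 and 3.89 to 4.31 CPM in Col-0. Of 6 such genes only GEX1 could be tested, with a log2 fold change of -0.63 (edgeR adjusted p = 0.185), HAP2 was too low to test, and 1 was at 0 in all libraries. The part of the tapetum difference in the result for the 10 genes was not tested. Without dxo1 replicate 1, where 21.8% of all genes were called lower, the counts lower were 22 of 24 signalling partners, 6 of 6 other pollen RALF genes, 7 of 8 other pectin genes, 4 of 8 transcription factors, 10 of 19 relatives outside pollen (4 higher), 7 of 11 tapetum markers, 3 of 6 carpel and ovule markers and the 1 sperm marker tested. The medians of these lists were -2.08, -2.83, -2.53, -0.92, -0.23, -0.30, -0.23 and -1.08.

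**Figure D3:**
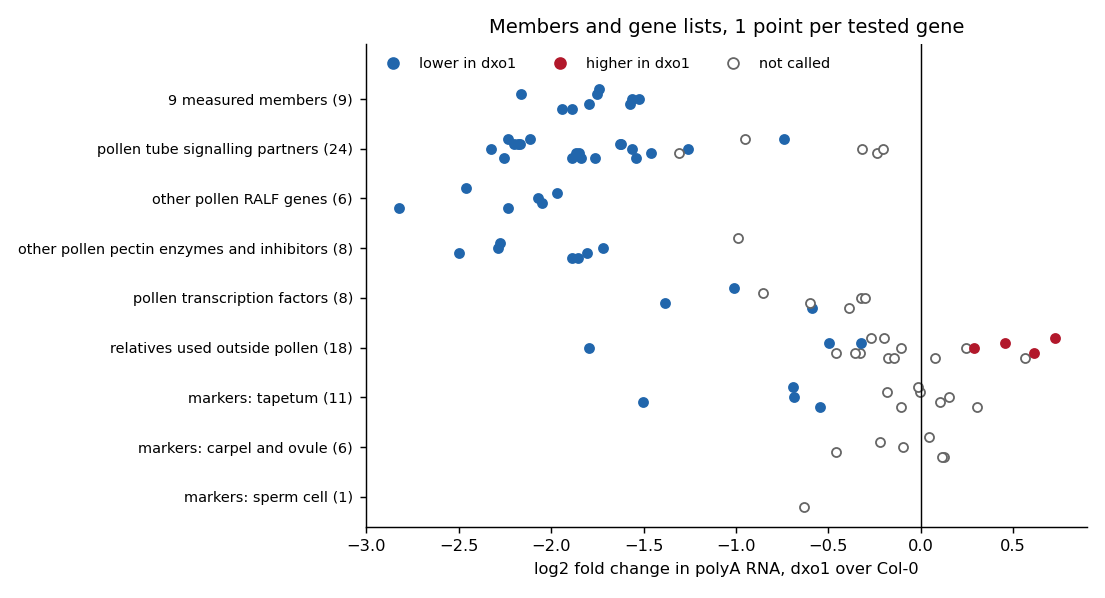
Log2 fold change of dxo1 over Col-0 in polyA RNA for each tested gene (points) of the 9 measured genes and of 8 lists, blue where called lower, red where called higher and open where not called. The medians of the signalling partners (-1.69), other pollen RALF genes (-2.15) and other pollen pectin genes (-1.87) lie beside that of the 9 genes (-1.75). Those of relatives outside pollen (-0.16), tapetum markers (-0.11) and carpel and ovule markers (-0.03) lie close to 0. Even so, 4 of the 11 tapetum markers tested were called lower, against 14.5% of all genes.

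NAD capture was also compared with total RNA within each genotype, which shows whether the transcripts of a gene were over- or under-represented among captured RNA. None of the 9 genes passed in either genotype by edgeR's test. In dxo1, 1 of the 9 had an unadjusted p under 0.05, and 36.5% of all genes passed in either direction. In Col-0, 2 of the 9 had an unadjusted p under 0.05, and 24.2% of all genes passed. DESeq2 also called none of the 9 in either genotype. Some of the 9 passed in both genotypes when either Col-0 NAD capture library was left out, and in dxo1 without total RNA dxo1 replicate 1. In dxo1, leaving out either Col-0 NAD capture library raised the calls over all genes as well. Such counts are not read as a result about the 9. The median log2 ratio of capture over total RNA was 0.41 in dxo1 and 0.36 in Col-0, against 0.04 and 0.06 over all genes.

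Counts of separated libraries were close to or under the share over all genes, and the values are given as a description. In dxo1, RALF19, VGD1 and PPME1 had both capture libraries above both total RNA libraries (38.3% of all genes did), and BUPS2 and VGDH2 had both below (37.2% of all genes). RALF19 gave 13.6 and 16.7 CPM in dxo1 capture and 8.77 and 4.00 CPM in dxo1 total RNA (log2 ratio 1.32, SE 0.62, edgeR adjusted p = 0.119). VGD1 gave 131 and 116 CPM in dxo1 capture against 103 and 55.1 CPM in dxo1 total RNA (log2 ratio 0.65, SE 0.30, edgeR adjusted p = 0.110). VGDH2 went the other way, at 89.6 and 70.8 CPM in dxo1 capture and 149 and 100.1 CPM in dxo1 total RNA (log2 ratio -0.63, SE 0.28, edgeR adjusted p = 0.0981), as did BUPS2 (log2 ratio -0.96, SE 0.49, edgeR adjusted p = 0.149). Without the dxo1 replicate 1 libraries none of the 9 was called, and the log2 ratios were 2.05 for RALF19, 1.07 for VGD1, -0.50 for VGDH2 and -0.56 for BUPS2.

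In Col-0, ANX1, ANX2 and VGD1 had both capture libraries above both total RNA libraries (29.2% of all genes), and VGDH1 and VGDH2 had both below (29.9%). ANX2 gave 17.4 and 19.8 CPM in Col-0 capture, against 9.61 and 8.91 CPM in Col-0 total RNA (log2 ratio 1.02, SE 0.38, edgeR adjusted p = 0.0723). VGDH2 gave 133 and 177 CPM in Col-0 capture and 231 and 264 CPM in Col-0 total RNA (log2 ratio -0.67, SE 0.28, edgeR adjusted p = 0.102). VGD1 thus lay above total RNA and VGDH2 below it in both genotypes, without a call in either. The difference between the genotypes in this ratio was tested for all 9 genes and called for none, and for none of the 17718 genes, of which 1332 and 0 of the 9 had an unadjusted p under 0.05 in edgeR's test; DESeq2 called 16 genes and 0 of the 9. Without Col-0 NAD capture replicate 2, some of the 9 were called, in a fit that gave calls over all genes as well. The genotype difference ran from -1.22 for ANX1 (SE 0.69, edgeR adjusted p = 0.713) to 0.48 for RALF4 (SE 0.71, edgeR adjusted p = 0.897). Without the dxo1 replicate 1 libraries these values were -1.13 for ANX1 and 0.65 for RALF4.

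With polyA RNA as the reference, the ligand genes passed in dxo1. RALF4 had 28.7 and 17.8 CPM in dxo1 capture, against 8.36 and 5.40 CPM in dxo1 polyA RNA scaled in the same fit, a log2 ratio of 1.80 (SE 0.46, edgeR adjusted p = 0.0194). RALF19 had 18.5 and 22.7 CPM in dxo1 capture, against 7.99 and 4.11 CPM in dxo1 polyA RNA (log2 ratio 1.72, SE 0.55, edgeR adjusted p = 0.0441). Over all genes, 15.4% were called higher in this comparison. Capture lay above polyA RNA in both libraries for 5 of the 9 genes, RALF4, RALF19, ANX2, VGD1 and PPME1, against 35.3% of all genes. PPME1 had 156 and 108 CPM in dxo1 capture and 84.8 and 39.7 CPM in dxo1 polyA RNA (log2 ratio 1.09, SE 0.48, edgeR adjusted p = 0.113). Without the dxo1 replicate 1 libraries, RALF4 gave a log2 ratio of 1.71 and RALF19 of 2.45, and neither ligand gene passed. Leaving out a single library gave no call for either NAD capture dxo1 library, either polyA Col-0 library or polyA dxo1 replicate 2, and 1 call for polyA dxo1 replicate 1. In Col-0 none of the 9 passed in capture over polyA RNA, with 2 at an unadjusted p under 0.05 and 18.7% of all genes called. ANX2 gave a log2 ratio of 0.75 (SE 0.26, edgeR adjusted p = 0.0722) there and VGDH2 of -0.95 (SE 0.29, edgeR adjusted p = 0.0527). DESeq2 called 1 of the 9 in Col-0, and 4408 genes over all. Some of the 9 passed there when either Col-0 NAD capture library or either polyA dxo1 library was left out. Without Col-0 NAD capture replicate 1 the calls over all genes rose as well, and in the others of these fits they fell. These counts are not read as a result about the 9. Whether capture over polyA RNA differed between the genotypes was not tested.

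GMUCT reads of the 9 genes in dxo1 were set against polyA RNA of dxo1, which relates decay and cleavage products to the RNA from which they derive. Both ligands and 3 of the 4 esterases were lower among GMUCT reads by edgeR's test, and ANX1, ANX2, BUPS2 and VGDH2 did not pass. The 5 calls lower out of 9 compare with 32% of all 20117 genes called lower, and the median log2 ratio was -1.09 over the 9 genes and 0.00 over all genes. GMUCT libraries lay below both polyA libraries for 5 of the 9 genes, against 39.7% of all genes.

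RALF4 gave the lowest ratio, with 1.20 and 0.835 CPM in GMUCT and 9.48 and 6.15 CPM in polyA RNA (log2 ratio -2.91, SE 0.28, edgeR adjusted p = 5.06e-05). It rested on 34 and 16 GMUCT reads. RALF19 had 1.69 and 0.887 CPM in GMUCT, against 9.05 and 4.69 CPM in polyA RNA (log2 ratio -2.36, SE 0.37, edgeR adjusted p = 0.000752). Of the receptors, ANX1 had 3.60 and 4.02 CPM in GMUCT and 3.84 and 3.22 CPM in polyA RNA (log2 ratio 0.10, SE 0.22, edgeR adjusted p = 0.710). ANX2 had 3.28 and 2.71 CPM in GMUCT, against 4.44 and 3.12 CPM in polyA RNA (log2 ratio -0.33, SE 0.23, edgeR adjusted p = 0.242), and BUPS2 had 3.11 and 2.35 CPM in GMUCT, against 5.72 and 2.83 CPM in polyA RNA (log2 ratio -0.65, SE 0.33, edgeR adjusted p = 0.116). For all 3 receptors the libraries of both assays overlapped.

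The esterases differed among themselves. VGD1 had 25.2 and 15.6 CPM in GMUCT, against 166 and 79.4 CPM in polyA RNA (log2 ratio -2.58, SE 0.35, edgeR adjusted p = 0.000336). VGDH1, its neighbour and relative, had 33.2 and 18.5 CPM in GMUCT, against 82.8 and 38.8 CPM in polyA RNA (log2 ratio -1.23, SE 0.36, edgeR adjusted p = 0.0170). PPME1 had 42.1 and 23.9 CPM in GMUCT and 96.1 and 45.2 CPM in polyA RNA (log2 ratio -1.09, SE 0.35, edgeR adjusted p = 0.0259). VGDH2 had 114 and 85.1 CPM in GMUCT and 197 and 112 CPM in polyA RNA, where the highest GMUCT library lay just above the lower polyA library (log2 ratio -0.64, SE 0.25, edgeR adjusted p = 0.0542). Without the dxo1 replicate 1 libraries the 9 log2 ratios ran from -2.87 to 0.32, 8 of them negative, with VGDH2 at -0.40. The calls of VGDH1 and PPME1 were lost without polyA dxo1 replicate 1 (log2 ratios -0.59 and -0.46, edgeR adjusted p = 0.128 and 0.209) and without GMUCT replicate 2 (-0.88 and -0.75, edgeR adjusted p = 0.0757 and 0.115). GMUCT was run on dxo1 alone, so no comparison with Col-0 is possible here.

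**Figure D4:**
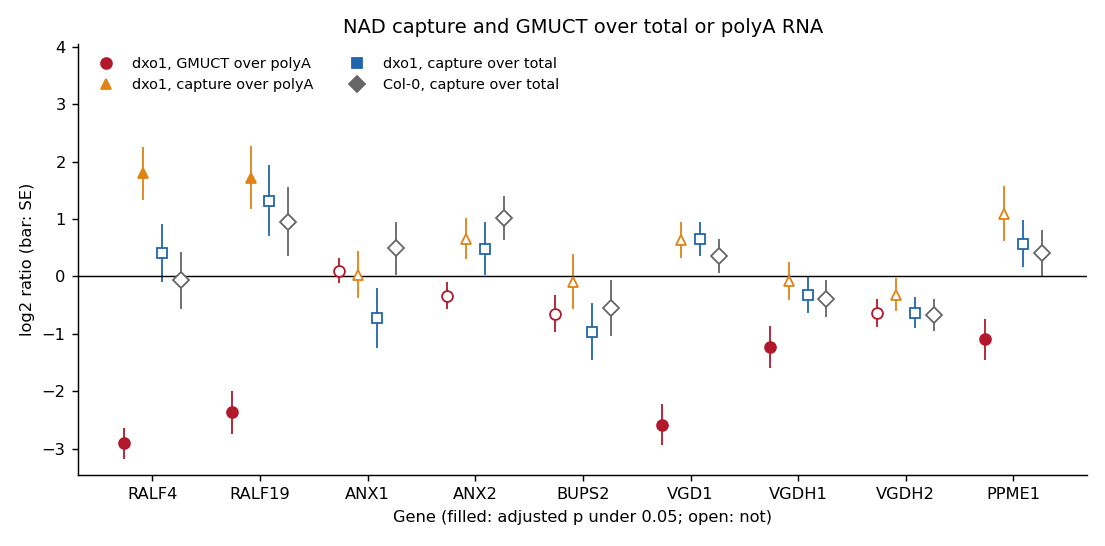
Log2 ratio for the 9 measured genes of GMUCT over polyA RNA in dxo1, NAD capture over polyA RNA in dxo1, and NAD capture over total RNA in dxo1 and in Col-0, with bars of 1 SE and filled symbols where the edgeR adjusted p is under 0.05. RALF4 lies at -2.91 in GMUCT over polyA RNA and at 1.80 in NAD capture over polyA RNA, while ANX1 lies at 0.10 in GMUCT over polyA RNA.

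The mix of the 4 esterase transcripts differed between assays in a way that needs no scaling between libraries. The GMUCT counts list 27416 genes and those of polyA, total and captured RNA 28775. Whether this changed how reads were shared out between these genes was not tested. VGD1 made up 11.8% (95% exact binomial interval 10.97 to 12.6%) and 10.9% (9.77 to 12.1%) of the esterase reads in the GMUCT libraries, against 30.6 and 28.8% in dxo1 polyA RNA. VGDH2 made up 53.1 and 59.5% of them in GMUCT, against 36.3 and 40.7% in dxo1 polyA RNA. The GMUCT reads of this family thus leaned to VGDH2 and away from VGD1 in both libraries. Such intervals cover counting error only.

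Captured RNA leaned the other way. VGD1 made up 35.4 and 37.8% of esterase reads in dxo1 capture and 46.5 and 38.5% in Col-0 capture, against 26.2 and 22.9% in dxo1 total RNA and 31.6 and 31.4% in Col-0 total RNA. VGDH2 made up 24.2 and 23.1% in dxo1 capture and 24.2 and 22.5% in Col-0 capture, against 37.9 and 41.7% in dxo1 total RNA and 33.6 and 38.0% in Col-0 total RNA. In both genotypes every capture library was above every total RNA library for VGD1 and below for VGDH2. The ratio of VGD1 to VGDH1 reads, both counted in the same library, was 3.83 and 2.86 in dxo1 capture and 3.08 and 3.43 in Col-0 capture, against 1.62 and 1.81 in dxo1 total RNA and 1.91 and 1.99 in Col-0 total RNA. It was 2.00 and 2.05 in dxo1 polyA RNA, 2.31 and 2.16 in Col-0 polyA RNA, and 0.761 and 0.845 in GMUCT. These shares and ratios were not tested, with 2 libraries a group.

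PPME1 stood apart from the other 9 genes in small RNA. Its transcript collected 268 and 452 small RNA reads in dxo1 rdr6, 10274 and 590 in dxo1 and 3974 and 10531 in Col-0, while each of the other 9 had 0 to 58 reads in any library. Before scaling is considered, 3 features of these libraries matter. All counts in the dxo1 rdr6 tables are even numbers, 25 nt reads make up 92.1 and 88% of those libraries against 9.66 to 13.6% of the others, and dxo1 replicate 2 holds 137603 reads in all, against 1483736 to 4087476 in the other 5.

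Most PPME1 small RNA was 24 nt long and antisense to the transcript. In dxo1 rdr6, 79.9% (72.1 to 86.3%) and 84.96% (79.6 to 89.4%) of it was antisense, in dxo1 90.3% (89.7 to 90.8%) and 91.2% (88.6 to 93.3%), and in Col-0 89.8% (88.9 to 90.8%) and 89.7% (89.1 to 90.3%), with 95% exact binomial intervals, those for dxo1 rdr6 from halved counts. Among transcripts with at least 100 reads the median antisense share was 0 and 1.02% in dxo1 rdr6, 42.4 and 48.8% in dxo1 and 43.4 to 46.9% in Col-0. Reads of 24 nt, the length typical of siRNAs in DNA methylation, made up 70.9 and 80.1% of PPME1 small RNA in dxo1 rdr6, 84.4 and 86.1% in dxo1 and 83.9 and 84.4% in Col-0. By antisense 24 nt reads PPME1 ranked 50 and 49 among all transcripts in dxo1 rdr6, 15 and 3 in dxo1 and 20 and 22 in Col-0, of 26178 to 27162 transcripts listed. Strand and length were thus close to each other in dxo1 and Col-0 in all 4 libraries.

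**Figure D5:**
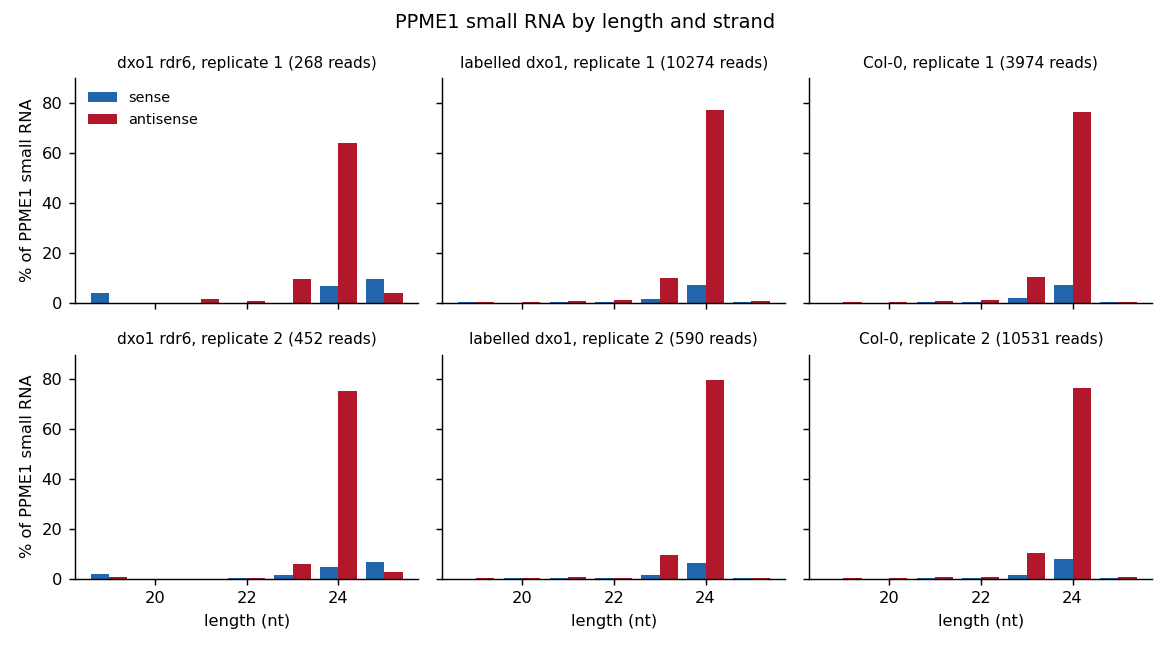
Share of PPME1 small RNA reads by length from 19 to 25 nt, in percent, for each of the 6 libraries, with sense reads in blue and antisense reads in red. Antisense 24 nt reads are the tallest bar in every library, and 24 nt reads of both strands make up 70.9 to 86.1% of the total.

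With TMM scaling PPME1 small RNA was called lower in dxo1 rdr6 than in dxo1. It stood at 72.8 and 134 CPM in dxo1 rdr6 and 3093 and 2028 CPM in dxo1, a log2 fold change of -4.63 (SE 0.87, edgeR adjusted p = 0.000173). Of the 7 members that could be tested it was the 1 called, and 23.3% of all 15358 transcripts tested were called lower. Without the dxo1 replicate 1 library the log2 fold change was -4.25. Against Col-0, with 4424 and 4658 CPM, it was -5.46 (SE 0.91, edgeR adjusted p = 2.52e-05). The size of both differences depended on how libraries were scaled: from 24 nt reads alone the log2 fold changes were -1.49 over dxo1 (edgeR adjusted p = 0.00182) and -0.93 over Col-0 (edgeR adjusted p = 0.0114). Scaled to the library's own 24 nt reads, PPME1 24 nt reads came to 1471 and 1553 CPM in dxo1 rdr6, 4725 and 8420 in dxo1 and 4067 and 3890 in Col-0. On this scale as well, both dxo1 rdr6 libraries lay below all 4 others. Reads of 24 nt made up 4.64 and 7.51% of the dxo1 rdr6 libraries, against 43.8 to 55.9% of the others. From 24 nt reads alone, 560 transcripts were called lower and 456 higher over dxo1, and 683 lower and 488 higher over Col-0. With the dxo1 rdr6 counts halved, PPME1 was also called lower than in dxo1 and than in Col-0. Halving lowers counts and library totals alike, so these calls bear on counting error and do not check the scaling.

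Between dxo1 and Col-0, PPME1 small RNA was not called and the sign depended on the scaling. TMM gave a log2 fold change of -0.83 (SE 0.76, edgeR adjusted p = 0.604), library totals gave 0.44 (edgeR adjusted p = 0.468) and 24 nt reads alone gave 0.57 (edgeR adjusted p = 0.196). Without the dxo1 replicate 1 library the TMM value was -1.20. None of the 7 tested members was called in dxo1 over Col-0 by edgeR, with 3 at an unadjusted p under 0.05 and 5.31% of all transcripts called. DESeq2 called none either, and edgeR called 1 without dxo1 replicate 1, dxo1 rdr6 replicate 1 or dxo1 rdr6 replicate 2. PPME1 polyA RNA was lower in dxo1, as given above, while the direction of its small RNA between the same genotypes could not be settled with these libraries.

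The other members were sparse in small RNA, and ANX2, RALF4 and RALF19 did not pass the filter on low counts. BUPS1, at 0 in the gene counts, had 14 and 14 small RNA reads in dxo1 rdr6, 15 and 0 in dxo1 and 6 and 12 in Col-0. BUPS2 and VGDH1 were called lower in dxo1 rdr6 than in Col-0, which with PPME1 makes 3 of 7, against 23.1% of all transcripts. These calls use the dxo1 rdr6 counts as given, all of them even. BUPS2 had 0 and 8 reads in dxo1 rdr6 and 7 and 21 in Col-0 (log2 fold change -2.87, SE 0.77, edgeR adjusted p = 0.00487). VGDH1 had 26 and 30 reads in dxo1 rdr6 and 21 and 48 in Col-0 (log2 fold change -1.46, SE 0.39, edgeR adjusted p = 0.00432). DESeq2 called neither, at adjusted p of 0.464 for BUPS2 and 0.233 for VGDH1, and with library totals VGDH1 gave -0.42 (edgeR adjusted p = 0.385). Leaving out either dxo1 rdr6 library raised the count of members called over Col-0 and over dxo1. Without Col-0 replicate 2 fewer members were called over Col-0. Counts over all transcripts moved in these fits too, so such counts are not read as a result about the members. VGD1 small RNA was mostly sense and mostly 25 nt, with 54 of 54 and 42 of 42 reads at 25 nt in dxo1 rdr6, 21 of 36 and 1 of 1 in dxo1, and 11 of 13 and 30 of 51 in Col-0.

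Across the 12 NAD capture, total and polyA libraries, the 9 genes followed each other to different degrees. Pearson's r between the log2 CPM of 2 members ranged from 0.30 (ANX1 with RALF19) to 0.94 (VGDH1 with VGDH2), with a median of 0.70 over the 36 pairs. RALF4 with RALF19 gave 0.87 and ANX1 with ANX2 gave 0.85. Of 17715 genes compared, the 5 nonmembers with the highest r to the mean profile of the 9 genes were AT2G47050 (0.985), the neighbour of VGD1, AT2G16730 (0.981), a beta-galactosidase gene (BGAL13), AT3G62710 (0.979), AT3G02810 (0.978), known as LIP2, a receptor-like kinase of pollen tube guidance, and AT1G04540 (0.976). These values describe 12 libraries that share assay, depth and genotype, and carry no test.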

How the data were processed

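Per the labels, RNA was taken from unopened flower buds with Qiazol and miRNeasy columns and sequenced as 50 nt strand-specific single-end reads. Cutadapt, STAR 2.4.2a, HTSeq and TAIR10 are named in the submitters' processing notes, and settings are not given in the sources used here, nor is the tool behind the small RNA tables. The deposited files hold raw counts per gene, with 5 entries for unassigned reads that were left out, and raw small RNA counts per transcript, strand and length (19 to 25 nt), which were summed. Whether counting used strand is not given. Symbols come from the RefSeq annotation of TAIR10.1 (28009 of 28775 IDs matched).

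Counts were tested in R 4.3.3 with edgeR 4.0.16 (filterByExpr with a minimum count of 10, TMM, quasi-likelihood F test, two-sided, Benjamini-Hochberg adjustment over all genes tested, threshold 0.05). The 5 fits were NAD capture with total RNA (8 libraries), NAD capture with polyA RNA (8), polyA RNA (4), GMUCT with polyA RNA (6) and small RNA (6), giving 12 comparisons. CPM are scaled within each fit, so they differ between fits. Errors beside log2 values are approximate: the absolute value over the square root of F. Comparisons of 1 assay with others share libraries. With 2 libraries per group no permutation could pass the threshold. Alternatives were DESeq2 1.42.0, its size factors, library totals alone, no filter, a replicate block, only the 2 groups compared, each library left out, and all dxo1 replicate 1 libraries left out. Small RNA of 24 nt alone and halved dxo1 rdr6 counts were added after seeing the data, as were the lists without dxo1 replicate 1.

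Members and lists were chosen with earlier results of these data known. Genes named were all members, up to 4 passing genes per list by lowest p in polyA RNA (otherwise the 2 of highest level), and the 5 nonmembers most like the members. A list entry counted where the annotation paired ID and name or named none. Replicates differed by more than counting noise (chi-square per degree of freedom 2.26 to 33.7).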

Additional observations from a re-analysis of the deposited data

How the results depend on the processing

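All 9 measured genes stayed lower in polyA RNA of dxo1 with every scaling, filter, tool and block tried, and leaving out 1 library left 3 to 9 calls. The remaining counts of members called were smaller and moved. In total RNA (0 called), DESeq2 size factors gave 1, DESeq2 2, no filter 6 and only the groups compared 7, with 0 to 7 on leaving out a library. In NAD capture, dxo1 over Col-0 (1), library totals, only the groups compared and no dxo1 replicate 1 each gave 0, no filter 5 and DESeq2 3, with 0 to 8. Capture over total RNA (0) gave 1 in dxo1 with library totals or no filter, 4 with only the groups compared and 0 to 4 on leaving out a library, and in Col-0 1 without a filter and 0 to 3. The genotype difference of that ratio (0) ranged from 0 to 2. Capture over polyA RNA gave 0 in dxo1 (2) with library totals or without dxo1 replicate 1, 1 with DESeq2 and 0 to 3 on leaving out a library, and in Col-0 (0) 1 with library totals, no filter or DESeq2 and 0 to 3. GMUCT over polyA RNA (5) ranged from 3 to 7. Small RNA of dxo1 rdr6 over dxo1 (1) gave 2 with library totals or only the groups compared, 3 without a filter and 1 to 4, and over Col-0 (3) 6 without a filter, 1 with DESeq2 or 24 nt reads and 1 to 6. For dxo1 over Col-0 (0), 1 was called without dxo1 replicate 1, with 0 to 1 on leaving out a library. The causes were not tested.

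Directions turned for VGDH2 in dxo1 capture over total RNA with library totals (0.056), for ANX1 in GMUCT with library totals (-0.038) or a library left out (-0.019 to 0.22), for PPME1 small RNA in dxo1 over Col-0 with library totals (0.44) or 24 nt reads (0.57), and, with a library left out, for RALF4 (-1.22 to 0.94), RALF19 (-1.40 to 1.67) and PPME1 (-1.15 to 0.34) in NAD capture. Of 756 values of single members under alternatives, 622 kept direction and call and 8 turned.

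Within the fits, replicate numbers did not pair the libraries (correlation of deviations -0.058 to 0.093), apart from GMUCT and polyA RNA of dxo1 (0.538). The GMUCT test reported above did not use that pairing. Total RNA was not set against polyA RNA or GMUCT in this check. With the replicate block, 9 members were called in polyA RNA, 7 in GMUCT over polyA RNA (VGDH2 and BUPS2 joined, at adjusted p of 0.0111 and 0.0476), 0 in total RNA, 0 in NAD capture, 1 in dxo1 capture over polyA RNA, and in small RNA 1, 2 and 4 (dxo1 over Col-0, dxo1 rdr6 over dxo1, dxo1 rdr6 over Col-0). Over all genes the block called 6523 in polyA RNA, 13806 in GMUCT over polyA RNA and 5446 in dxo1 capture over polyA RNA. In small RNA it called 382, 4422 and 4215 transcripts, in the same order.

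Counts over all genes moved as well. Total RNA went to 0 with library totals, 19 with the block, 289 with DESeq2, 1081 without a filter and 2357 with only its 4 libraries (175 as reported). NAD capture gave 0 with library totals, 79, 449 and 1524 with the block, DESeq2 and no filter (134 as reported). Leaving out Col-0 polyA replicate 1 or 2 gave 670 or 1264 calls in polyA RNA (5932 as reported). Receptors and RALF genes in NAD capture rest on 4 to 102 reads, and the Col-0 capture replicates differed by more than counting error (chi-square per degree of freedom 33.7).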
